A study of Mus musculus with 10 samples.

Results

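Lipoxygenase and prostaglandin pathway genes were followed in adipocyte precursors (APs) cultured with or without IL-4. The 10 genes, Alox15, Alox5, Alox5ap, Ltc4s, Ptgs1, Ptgs2, Ptges, Ptgis, Hpgds and Ptger4, were taken by their symbol from the 18384 genes listed in the mRNA-seq data, and all 10 are listed. The APs came from the subcutaneous white fat of C57BL/6J mice. Cells carrying CD45 (leukocytes) or CD31 (endothelial cells) were depleted with magnetic beads, and SCA-1-positive cells were then selected and grown in DMEM/F12 with serum. The control APs (3 libraries) received no IL-4. The IL-4–treated APs (also 3 libraries) received IL-4 from one day after seeding. Both groups were harvested on day 4. They share the mouse strain, the depot and the selection. The cells are a cell mixture chosen by surface markers. The sources used here do not say which libraries came from separate cultures or animals. The p-values thus measure the spread between these libraries, which may be technical. The other 4 libraries of the series hold small RNA and do not measure these genes.

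Arachidonic acid is cut from membrane phospholipids by phospholipases A2 and is then oxidized by one of several enzyme families. Cyclooxygenases turn it into prostaglandin H2, from which terminal synthases make prostaglandin E2, prostaglandin D2, prostacyclin and other prostanoids, while lipoxygenases turn it into leukotrienes and hydroxylated fatty acids. In adipose tissue, prostaglandin E2 and prostacyclin are known as regulators of adipocyte differentiation, and leukotrienes are made largely by leukocytes.

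Control libraries held 28526782 to 28674604 expected counts and IL-4 libraries 28914003 to 29057787. Expected counts are the reads that the authors' software assigned to a gene, rounded here. Normalized read counts are these reads brought to a common library size after TMM scaling. FPKM is the level relative to transcript length and library size and was used to compare genes with each other. IL-4 replicate 6 stood apart from the other IL-4 libraries (chi-square per degree of freedom of 45.8 and 36.7 against them, compared with 2.49 between replicates 4 and 5 and 3.77 to 16.8 among controls). Markers of APs were present, with a summed FPKM over 10 genes of 4156 to 4475 in control and 4704 to 5009 in IL-4 libraries. Most of this sum was the collagen gene Col1a1 (mean FPKM of 3307 in control libraries). At an adjusted p under 0.05, 6 of the 10 AP markers rose and 2 fell, with 3 higher and 0 lower beyond a log2 fold change of 1. Of all genes tested, 19.0% rose and 18.4% fell, and beyond 1 the shares were 5.77% and 5.26%. AP markers thus moved between the same groups as the genes described here, and their part in the results was not tested. All 12 macrophage markers were also expressed, Ptprc (which encodes CD45), Adgre1 and Csf1r among them, although CD45-positive cells had been depleted. Their summed FPKM was 4078 to 5327 in control and 1573 to 2139 in IL-4 libraries. Most of the control sum was Lyz2 (mean FPKM of 2739 in control and 776 in IL-4 libraries). The sum was highest in control replicate 3 within the controls and in IL-4 replicate 6 within the IL-4 libraries. This did not hold for every marker, as Ptprc, Csf1r and Itgam had their lowest normalized counts of the IL-4 libraries in replicate 6. At an adjusted p under 0.05 edgeR gave 11 of the 12 as lower and 0 as higher (1 higher at an unadjusted p under 0.05, and 1 with DESeq2). Of all genes tested, 18.4% were lower. Beyond a log2 fold change of 1, 5 of the 12 were lower, as were 5.26% of all genes tested. Without control replicate 3 or without IL-4 replicate 4, 8 were lower at any fold change. The numbers lower over all genes were then 2150 and 2184, against 2582 with all libraries. In bulk samples, fewer cells of a type and less RNA per cell cannot be told apart. Eosinophil and mast cell markers (10 genes) reached a summed FPKM of 0.56 to 0.79 in control and 0.90 to 1.17 in IL-4 libraries, with Epx at 0, and lymphocyte markers (8 genes) 0.04 to 0.25 and 0.10 to 0.33, with Cd3e at 0. Endothelial markers (6 genes) summed to 12.65 to 13.29 and 14.12 to 16.18. Of them, 2 were higher and 2 lower at an adjusted p under 0.05 (19.0% and 18.4% of all genes tested).

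Of the 10 genes, 5 were upregulated in IL-4–treated APs (Ltc4s, Ptgs1, Ptges, Ptgis and Ptger4), 4 were downregulated (Alox5, Alox5ap, Ptgs2 and Hpgds), and Alox15 had too few reads to be tested. All 9 tested genes thus passed edgeR's quasi-likelihood test at an adjusted p under 0.05, where 19.0% of the 14009 genes tested were higher and 18.4% lower. With a log2 fold change beyond 1 as well, 5 were higher and 3 lower, against 5.77% and 5.26% of all genes tested. The normalized counts of the 3 control and the 3 IL-4 libraries did not overlap for any of the 9 genes, which held in the same directions for 25.2% (higher) and 25.3% (lower) of all genes. The 10 genes were chosen with earlier results of these data known, so setting them beside these shares is no test of the set. The median log2 fold change of the 9 genes was 1.04 and that of all genes tested 0.0026. With 5 genes higher and 4 lower, the median of the 9 is the smallest of the rises and describes no common shift. Leaving out IL-4 replicate 6 left 5 genes higher and 4 lower, of which 4 and 2 lay beyond a log2 fold change of 1. With library totals in place of the scaling, which shifts the median log2 fold change of all genes to -0.17, the directions and the adjusted p calls of the 9 genes were the same, and 2 genes were higher beyond 1.

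**Figure D1:**
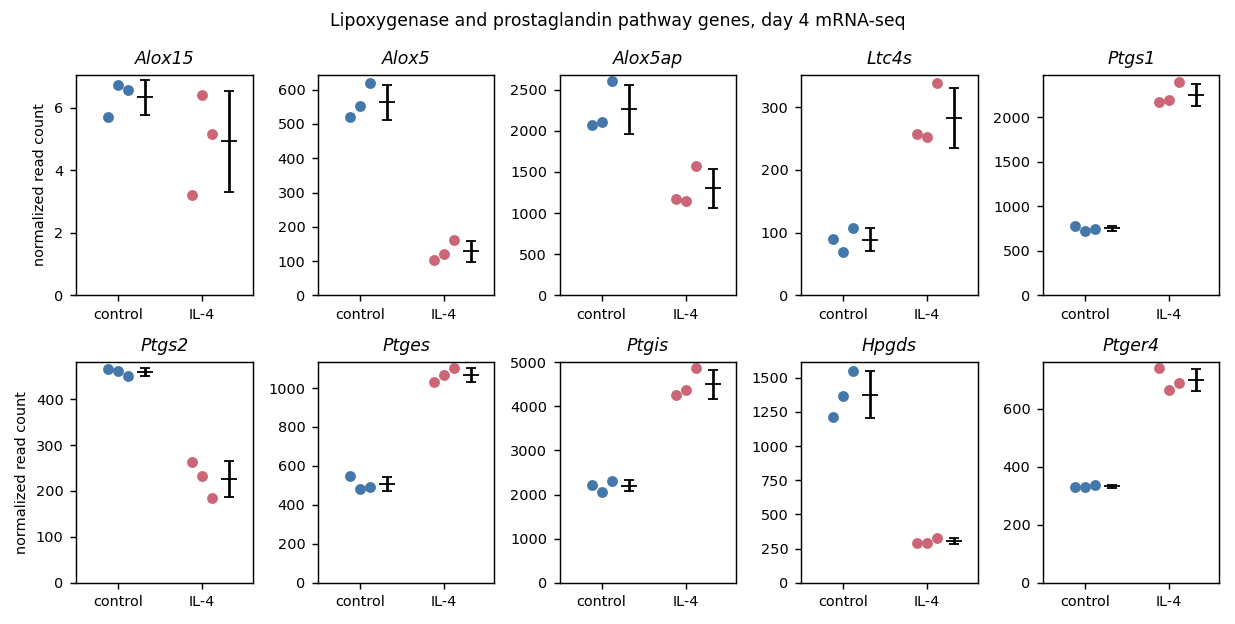
Normalized read counts (y axis, from 0) of the 10 genes in the 3 control (blue) and 3 IL-4 (red) libraries, with the mean and SD of each group in black. The groups overlap for Alox15, which has 3 to 7 reads per library, and are apart for the other 9 genes.

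Ordered by FPKM, the genes spanned a wide range in control APs. Alox5ap was highest with 86.9 ± 12.3 (SD, n = 3), followed by Ptgis with 48.0 ± 3.12, Hpgds with 15.7 ± 2.03, Ptgs1 with 9.85 ± 0.415, Alox5 with 7.52 ± 0.723, Ltc4s with 5.46 ± 1.13, Ptges with 5.21 ± 0.388, Ptgs2 with 3.84 ± 0.0513, Ptger4 with 3.78 ± 0.0777 and Alox15 with 0.0967 ± 0.00577. Among neighbours in this order, Ltc4s and Ptges overlapped in their FPKM values, as did Ptgs2 and Ptger4. In IL-4–treated APs, Ptgis led with an FPKM of 87.3 ± 7.79 (SD, n = 3), ahead of Alox5ap with 44.3 ± 8.82, Ptgs1 with 26.2 ± 1.89, Ltc4s with 15.2 ± 2.86, Ptges with 9.72 ± 0.488, Ptger4 with 7.05 ± 0.372, Hpgds with 3.07 ± 0.287, Ptgs2 with 1.67 ± 0.271, Alox5 with 1.52 ± 0.380 and Alox15 with 0.0667 ± 0.0252. Here Ptgs2 and Alox5 overlapped. Hpgds moved from the third place to the seventh, and Ltc4s from the sixth to the fourth. Alox5 fell by as many places as Hpgds, and Ptger4 rose by more places than Ltc4s.

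**Figure D2:**
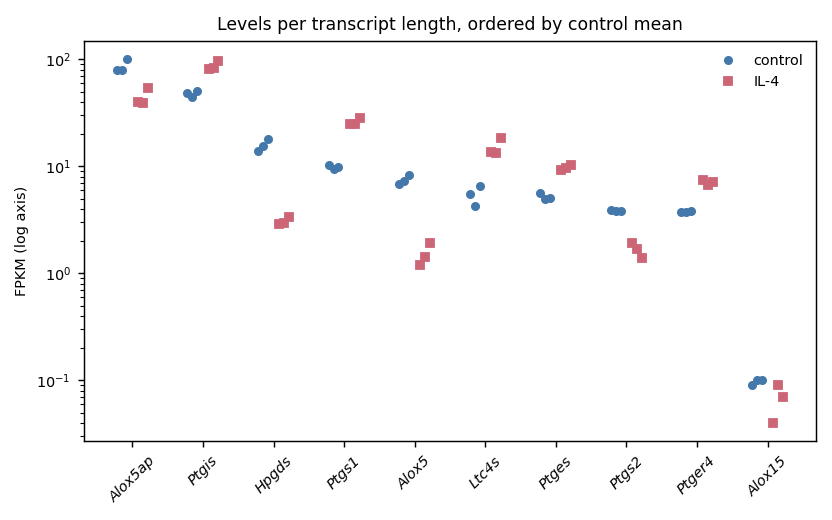
FPKM of the 10 genes in each control (blue circles) and IL-4 (red squares) library on a log axis, ordered from left to right by the control mean. Alox5ap is highest in controls (79.4 to 101) and Ptgis with IL-4 (81.8 to 96.2), while Alox15 stays at or below 0.10.

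Of the lipoxygenase genes, Alox5 was downregulated, and most others had few reads. Alox5 encodes 5-lipoxygenase, which starts leukotriene synthesis (Entrez gene 11689, chr6:116410071-116461178 of mm10, minus strand, 14 exons). It had 519, 553 and 618 normalized counts in control and 103, 122 and 161 in IL-4 libraries. The highest IL-4 library, replicate 6, lay well below the lowest control. Its log2 fold change was -2.13 ± 0.16 (standard error, SE, with an adjusted p = 2.29e-05), a level 4.37-fold higher in controls, and omitting single libraries moved it between -2.32 and -1.98. The annotated exons of Gm38880 overlap those of Alox5 on the opposite strand, and since the sources used here do not state that strand was kept, reads of the pair cannot be told apart.

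Alox15 encodes 12/15-lipoxygenase, an enzyme known to be induced by IL-4 in human monocytes and several other cell types (Entrez gene 11687, chr11:70344147-70390538, minus strand, 14 exons). It was read 6, 7 and 7 times in control and 3, 6 and 5 times in IL-4 libraries, 20 and 14 reads in all. The groups overlapped, and the gene was removed by the filter on low counts. Without that filter, the log2 fold change was -0.35 (adjusted p = 0.62), and DESeq2 gave -0.37 (adjusted p = 0.782), so no difference was detectable at this depth. Of 5 further lipoxygenase genes looked at, Alox12, Alox12b, Alox12e, Alox8 and Aloxe3, only Alox8 had enough reads for a test, and it did not pass (log2 fold change 0.02, adjusted p = 0.967). Alox12e, an epidermal lipoxygenase gene, was read 0, 4 and 2 times in control and 7, 12 and 17 times in IL-4 libraries, without overlap. Removed by the filter like Alox15, it was higher with IL-4 when no filter was used (adjusted p = 0.0182) and with DESeq2 (adjusted p = 0.01005), and without control replicate 3 its adjusted p was 0.0505.

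Alox5ap and Ltc4s, which belong to one family of membrane proteins, moved apart. Alox5ap encodes FLAP, which presents arachidonic acid to 5-lipoxygenase (Entrez gene 11690, chr5:149265004-149288153, plus strand, 4 or 5 exons). It had 2065, 2110 and 2606 normalized counts in control and 1177, 1153 and 1574 in IL-4 libraries, with replicate 3 the highest of the controls and replicate 6 the highest of the IL-4 libraries. Its log2 fold change was -0.80 ± 0.14 (SE, adjusted p = 0.00278), which is 1.74-fold higher in controls. Ltc4s encodes leukotriene C4 synthase, which joins glutathione to leukotriene A4 (Entrez gene 17001, chr11:50236461-50238532, minus strand, 5 exons). It had 90.3, 70.0 and 107 normalized counts in control and 258, 252 and 339 in IL-4 libraries, again with the highest value of each group in replicates 3 and 6. It rose 3.17-fold (log2 fold change 1.66 ± 0.18 SE, adjusted p = 2.11e-04).

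The FPKM ratios of these leukotriene genes were set side by side within each library. Alox5ap over Alox5 was 11.5, 11.0 and 12.1 in control and 33.0, 27.3 and 28.1 in IL-4 libraries. Ltc4s over Alox5 was 0.803, 0.585 and 0.786 in control and 11.4, 9.39 and 9.52 in IL-4 libraries. Ltc4s was thus below Alox5 in every control library and above it in every IL-4 library. Alox5ap over Ltc4s was 14.3, 18.7 and 15.4 in control and 2.89, 2.91 and 2.95 in IL-4 libraries, and the IL-4 libraries lay close together although both genes were higher in replicate 6. The share of Alox15 in the summed FPKM of Alox15 and Alox5 was 1.28%, 1.35% and 1.19% in control and 3.23%, 5.96% and 3.48% in IL-4 libraries (difference 2.95 percentage points, two-sided exact permutation p = 0.1, the smallest that 3 against 3 libraries allow). This share rests on the few Alox15 reads given above, whose groups overlapped, while those of Alox5 did not. Of the 12 macrophage markers, 11 fell between the same groups as Alox5 and Alox5ap, 5 of them beyond a log2 fold change of 1. Of all genes tested, 18.4% fell, 5.26% beyond 1. The log2 fold changes of the 11 ran from -4.43 (Aif1) to -0.24 (Adgre1). That of the remaining marker, Cd68, was 0.38 (edgeR, adjusted p = 0.0572). The summed FPKM of all 12, mostly Lyz2 in controls, was highest in the same replicates within each group. Single markers differed in this. Ptprc, Csf1r and Itgam had their lowest normalized counts of the IL-4 libraries in replicate 6, and the other macrophage markers their highest. The part of these markers in the results was not tested.

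Both cyclooxygenase genes changed, in opposite directions. Ptgs1 encodes COX-1, usually regarded as the constitutive cyclooxygenase (Entrez gene 19224, chr2:36216742-36258593, plus strand, 11 exons). It had 785, 727 and 747 normalized counts in control and 2176, 2189 and 2396 in IL-4 libraries. All IL-4 libraries lay far above all controls, and the rise was 2.99-fold (log2 fold change 1.58 ± 0.07 SE, adjusted p = 1.33e-06). Ptgs2 encodes COX-2, the cyclooxygenase induced by inflammatory signals (Entrez gene 19225, chr1:150100031-150108234, plus strand, 10 exons). It had 466, 461 and 449 normalized counts in control and 262, 232 and 184 in IL-4 libraries, lowest in replicate 6. Controls were 2.03-fold higher (log2 fold change -1.02 ± 0.12 SE, adjusted p = 3.92e-04). The log2 fold change of Ptgs2 was -0.89 without IL-4 replicate 6, and so no longer beyond 1.

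Ptgs2 made up 27.5%, 28.9% and 27.8% of the summed FPKM of both cyclooxygenases in control and 7.17%, 6.34% and 4.68% in IL-4 libraries. The mean share was 28.1% ± 0.708 and 6.06% ± 1.27 (SD, n = 3 each, difference -22.0 percentage points, two-sided exact permutation p = 0.1, the smallest possible). Expressed as a ratio of FPKM, Ptgs1 over Ptgs2 was 2.46 to 2.63 in control and 13.0 to 20.4 in IL-4 libraries. Ptgs1 was the more abundant of the pair in every library.

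Among the terminal synthases, Ptges and Ptgis rose and Hpgds fell. Ptges encodes microsomal prostaglandin E synthase-1, which makes prostaglandin E2 (Entrez gene 64292, chr2:30889471-30931020, minus strand, 3 exons). It had 550, 482 and 490 normalized counts in control and 1029, 1065 and 1103 in IL-4 libraries. Every IL-4 library lay far above the highest control, and the rise was 2.10-fold (log2 fold change 1.07 ± 0.08 SE, adjusted p = 1.88e-05). Ptgis encodes prostacyclin synthase (Entrez gene 19223, chr2:167203194-167252150, minus strand, 10 exons). It had 2221, 2060 and 2303 normalized counts in control and 4256, 4368 and 4868 in IL-4 libraries, the highest again in replicate 6. It rose 2.05-fold (log2 fold change 1.03 ± 0.07 SE, adjusted p = 2.06e-05), and its log2 fold change was 0.98 without IL-4 replicate 6 and 0.99 without control replicate 2. Exons of Gm52550 and Gm52569 overlap those of Ptges and Ptgis on the opposite strand, with the same limit as for Alox5.

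Hpgds encodes hematopoietic prostaglandin D synthase (Entrez gene 54486, chr6:65117293-65144981, minus strand, 6 exons). It had 1214, 1363 and 1553 normalized counts in control and 288, 293 and 330 in IL-4 libraries. The groups were far apart, with controls 4.53-fold higher (log2 fold change -2.18 ± 0.11 SE, adjusted p = 3.00e-06). Its expected counts were not whole numbers in every library, so some of its reads were shared between genes. Of the 12 macrophage markers, 11 fell between the same groups, 5 of them beyond a log2 fold change of 1 (18.4% and 5.26% of all genes tested). The log2 fold changes of all 12 ran from -4.43 (Aif1) to 0.38 (Cd68, which did not pass). Their part in the Hpgds result was not tested.

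Within the summed FPKM of Hpgds, Ptges and Ptgis, Hpgds took 20.3%, 23.7% and 24.2% in control and 3.07%, 3.04% and 3.10% in IL-4 libraries. The mean share was 22.7% ± 2.11 and 3.07% ± 0.0285 (SD, n = 3 each, difference -19.7 percentage points, two-sided exact permutation p = 0.1, the smallest possible). Ptgis over Hpgds was 2.85 to 3.52 in control and 28.3 to 28.6 in IL-4 libraries as a ratio of FPKM. Ptges lay below Hpgds in every control library, at a ratio of 0.285 to 0.409, and above it in every IL-4 library, at 3.01 to 3.28. Ptgds, the gene of the other prostaglandin D synthase, had too few reads for a test.

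**Figure D3:**
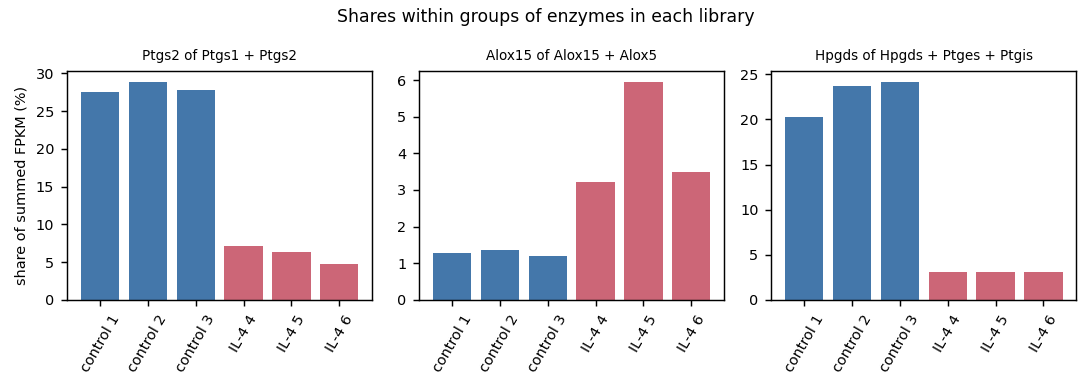
Share (y axis, percent of summed FPKM, from 0) of Ptgs2 in both cyclooxygenases, of Alox15 in Alox15 and Alox5, and of Hpgds in Hpgds, Ptges and Ptgis, in each control (blue) and IL-4 (red) library. Ptgs2 and Hpgds have lower shares in all IL-4 libraries, with Hpgds near 3.07% in each of them, and the Alox15 share rests on 3 to 7 reads per library.

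Promoter windows of 300 bases, from 250 before to 50 after an annotated start, were read from RefSeq (GRCm38.p6, the assembly of mm10) for 7 of the 10 genes, and are shown in gene orientation for the cyclooxygenases and the prostaglandin E and D synthases, which moved in both directions and hold a match to a searched motif. Capitals mark the match. The windows are chr2:36230176-36230475 (plus strand) for Ptgs1, chr1:150099781-150100080 (plus strand) for Ptgs2, chr2:30903248-30903547 (minus strand) for Ptges and chr6:65144681-65144980 (minus strand) for Hpgds. For Ptgs1, Ptges and Hpgds the window lies inside the gene span given above, so its start is not the outer end of the gene. No other start of these genes was searched.
Ptgs1: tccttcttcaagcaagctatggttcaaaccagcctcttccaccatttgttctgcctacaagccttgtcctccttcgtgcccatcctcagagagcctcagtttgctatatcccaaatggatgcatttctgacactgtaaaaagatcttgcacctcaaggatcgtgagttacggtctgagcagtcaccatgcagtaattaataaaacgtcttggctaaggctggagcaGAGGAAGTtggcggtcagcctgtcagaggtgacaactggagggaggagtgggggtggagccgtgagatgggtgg
Ptgs2: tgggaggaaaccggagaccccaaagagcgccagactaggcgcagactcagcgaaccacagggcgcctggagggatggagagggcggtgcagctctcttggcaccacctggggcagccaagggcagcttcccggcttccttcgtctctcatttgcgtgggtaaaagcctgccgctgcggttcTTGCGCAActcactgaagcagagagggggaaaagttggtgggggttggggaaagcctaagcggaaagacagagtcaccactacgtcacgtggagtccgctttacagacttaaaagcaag
Ptges: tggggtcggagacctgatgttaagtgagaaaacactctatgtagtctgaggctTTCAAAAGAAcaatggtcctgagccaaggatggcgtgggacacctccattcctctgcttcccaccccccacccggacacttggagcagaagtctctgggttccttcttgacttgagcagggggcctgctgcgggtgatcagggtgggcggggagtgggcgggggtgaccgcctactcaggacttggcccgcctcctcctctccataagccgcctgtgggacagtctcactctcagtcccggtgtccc
Hpgds: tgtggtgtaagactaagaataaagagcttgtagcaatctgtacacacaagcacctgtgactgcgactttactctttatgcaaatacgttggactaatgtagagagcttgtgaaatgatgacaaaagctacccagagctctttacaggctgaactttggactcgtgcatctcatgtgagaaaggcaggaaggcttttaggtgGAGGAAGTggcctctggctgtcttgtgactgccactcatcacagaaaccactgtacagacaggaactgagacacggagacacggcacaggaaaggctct

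Ptgs1 and Hpgds both hold the PU.1 motif GAGGAAGT, which begins 24 bases before the start in Ptgs1 and 49 bases before it in Hpgds, although one gene rose and the other fell. This motif occurs in 3.20% of 32851 promoter windows of the same length. Ptgs2 holds the C/EBP motif TTGCGCAA, found in 0.183% of windows, 69 bases before the start. Ptges holds TTCAAAAGAA, a match to the STAT6 motif (TTC and GAA with any 4 bases between them), found in 6.95% of windows, 197 bases before the start. The shorter STAT motif TTCNNNGAA (8.30% of windows), the TATA box TATAAA (13.6%) and the cAMP response element TGACGTCA (1.79%) had no match in any of the 7 windows, and the windows of Alox5, Ltc4s and Ptger4 held none of the 6 motifs. Both strands were searched and no matches overlapped. A match is a description of these letters and not a measured site.

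Ptger4 encodes EP4, a receptor for prostaglandin E2 that raises cAMP (Entrez gene 19219, chr15:5233399-5244187, minus strand, 3 exons). It had 331, 328 and 337 normalized counts in control and 740, 664 and 690 in IL-4 libraries. The controls lay within a narrow range and every IL-4 library far above it, and the rise was 2.10-fold (log2 fold change 1.07 ± 0.07 SE, adjusted p = 1.57e-05). Ptger2, which encodes EP2, the other prostaglandin E2 receptor that raises cAMP, rose 7.38-fold, from 28.5, 31.7 and 37.5 to 251, 233 and 240 normalized counts (log2 fold change 2.88, adjusted p = 1.66e-06). Ptger4 stayed the more abundant per length, but its FPKM ratio over Ptger2 was 10.2 to 13.4 in control and 3.28 to 3.36 in IL-4 libraries. Ptgir, the prostacyclin receptor gene, rose 2.72-fold from 342, 293 and 285 to 806, 835 and 861 normalized counts (adjusted p = 8.33e-06). Ptger1, which encodes EP1, had the highest FPKM among the other prostanoid receptors and a log2 fold change of -0.22 (adjusted p = 0.0766).

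A list of other genes of eicosanoid synthesis, signaling and breakdown, written with earlier results of these data known, holds 59 genes in 6 roles. In the files 57 are listed, and 43 were tested. Of these, 15 rose, 12 fell and 16 did not pass at an adjusted p under 0.05 (background 19.0% and 18.4%), with 9 higher and 2 lower beyond a log2 fold change of 1 (background 5.77% and 5.26%). The median log2 fold change of the 43 genes was 0.099. Without IL-4 replicate 6, 16 were higher and 14 lower. The number lower was 6 without control replicate 1 and 7 without control replicate 2 or IL-4 replicate 5. Calls over all genes moved in the same directions. They were 3199 higher and 3014 lower without IL-4 replicate 6, against 2663 and 2582 with all libraries. Those lower were 1911, 1963 and 2006 without control replicate 1, control replicate 2 and IL-4 replicate 5.

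Among genes for the release of arachidonic acid and its precursors, 6 of 11 tested rose and 1 fell (background 19.0% and 18.4%). Pla2g5 and Pla2g2e, which encode secreted phospholipases A2, rose the most, and both were scarce in controls. Pla2g5 had 3.8, 3.84 and 9.38 normalized counts in control and 179, 177 and 218 in IL-4 libraries (log2 fold change 5.04 ± 0.26 SE, adjusted p = 3.53e-06). Pla2g2e had 14.3, 24.0 and 12.2 in control and 300, 274 and 385 in IL-4 libraries (log2 fold change 4.24 ± 0.24 SE, adjusted p = 5.46e-06). Mgll, which encodes monoacylglycerol lipase, rose 2.32-fold, and Pla2g15, the lysosomal phospholipase with the highest FPKM in this role, 1.39-fold (adjusted p = 1.39e-05 and 6.27e-04).

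Of 7 tested lipoxygenase and leukotriene synthesis genes, 2 rose and 1 fell (background 19.0% and 18.4%). Dpep1, whose dipeptidase turns leukotriene D4 into leukotriene E4 downstream of Ltc4s, rose from 688, 752 and 812 to 3864, 3817 and 4024 normalized counts, which is 5.20-fold (adjusted p = 3.01e-07). Gpx4, whose product reduces lipid hydroperoxides, had the highest FPKM in this role and did not pass (log2 fold change 0.19, adjusted p = 0.264). Without IL-4 replicate 6, 2 genes of this role were lower. Of 7 tested prostanoid synthesis genes other than Ptgs1, Ptgs2, Ptges, Ptgis and Hpgds, 1 rose and 2 fell (same background). None lay beyond a log2 fold change of 1. Ptges3, the cytosolic prostaglandin E synthase and also a chaperone, had the highest FPKM and fell by 0.24 on the log2 scale (adjusted p = 0.0385). That call was lost when any library other than IL-4 replicate 6 was left out, with log2 fold changes between -0.28 and -0.19.

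Of 6 tested prostanoid receptor genes, 2 rose and 2 fell (background 19.0% and 18.4%). Of 4 tested receptors of leukotrienes and other lipid mediators, 2 rose and 2 fell (same background). With so few genes per role, these counts describe the list, and no shift of a role was tested. Ltb4r1, the high-affinity leukotriene B4 receptor gene, rose from 2.85, 7.68 and 14.1 to 27.8, 22.4 and 36.1 normalized counts (log2 fold change 1.79 ± 0.44 SE, adjusted p = 0.0132). Without control replicate 2, its adjusted p was 0.0503, and without control replicate 3 its log2 fold change was 2.43. Cmklr1, a receptor for chemerin and resolvin E1, fell from 597, 599 and 650 to 322, 314 and 265 normalized counts (log2 fold change -1.03, adjusted p = 7.83e-05).

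In transport and breakdown, 2 of 8 tested genes rose and 4 fell (background 19.0% and 18.4%). Hpgd encodes the dehydrogenase that inactivates prostaglandins and had the highest FPKM in this role. It had 1063, 1022 and 1515 normalized counts in control and 579, 562 and 637 in IL-4 libraries, a log2 fold change of -1.02 ± 0.15 (SE, adjusted p = 0.00115) that was -0.82 without control replicate 3. Ephx2, the soluble epoxide hydrolase gene, rose 2.72-fold (adjusted p = 2.31e-05).

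**Figure D4:**
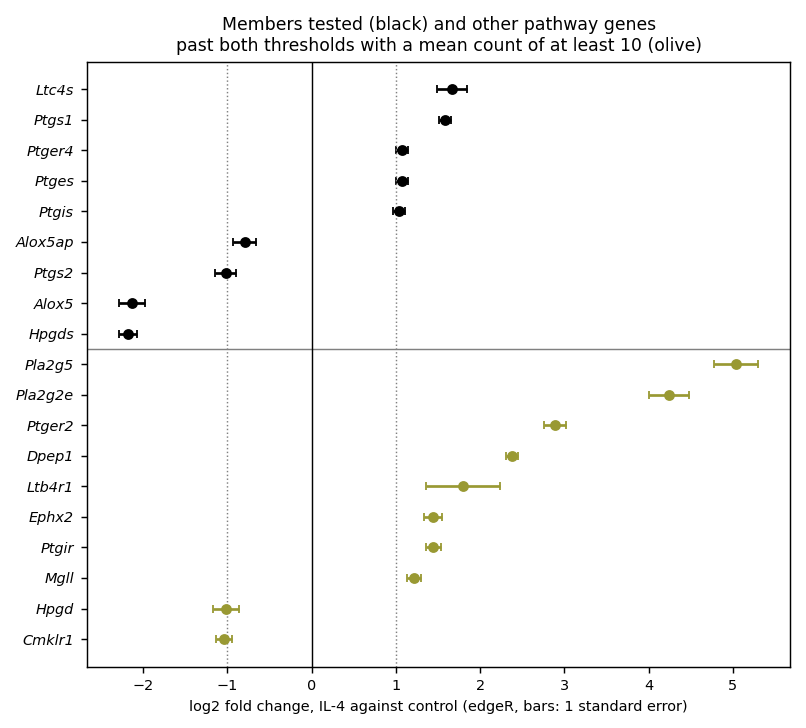
Log2 fold change, IL-4 against control, with bars of 1 standard error, for the 9 tested genes of the set (black) and for 10 other pathway genes past both thresholds with a mean of at least 10 normalized counts (olive). Dotted lines mark a log2 fold change of 1 in either direction, near which Ptges, Ptgis, Ptger4, Ptgs2, Hpgd and Cmklr1 lie.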

How the data were processed

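mRNA-seq of 3 control and 3 IL-4 libraries was used, grouped by the sample labels. Reads were filtered with SOAPnuke and gene levels computed by the authors with Bowtie2 and RSEM on RefSeq transcripts (mm10, also HISAT and StringTie in the submitters' processing notes). The deposited expected counts carry no normalization, whereas FPKM were scaled by the authors for length and library size. Among expected counts above 0, 87.0% are exactly whole at the 2 decimals given. Genes without a row were taken as 0, and 1 row that names no gene (0.00016% of counts) was dropped. The columns of the small RNA files were not used.

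After rounding, genes were filtered by filterByExpr (at least 10 counts, 15 in total), scaled with TMM (factors 1.05 to 1.07 in control and 0.932 to 0.961 in IL-4 libraries) and tested with edgeR 4.0.16 (quasi-likelihood) in R 4.3.3, with Benjamini-Hochberg adjustment over 14009 genes. No pair of libraries agreed within sampling noise. Shares of FPKM were compared with exact permutation tests in scipy 1.17.1. Alternatives were DESeq2 1.42.0, upper-quartile scaling, library totals, no filter, limma 3.58.1 applied to log2 FPKM with a pseudocount of 1 or 0.1, shares of expected counts, and each library left out. Counts by role without IL-4 replicate 6 were added after seeing the data. Counting precision is limited for genes with few reads, such as Alox15.

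All 10 genes are named. Other pathway genes are named when past an adjusted p of 0.05 and a log2 fold change of 1 with a mean of at least 10 normalized counts, or when highest in FPKM within their role. The further lipoxygenase genes, Ptgds, Col1a1 and the macrophage markers Lyz2, Itgam, Aif1 and Cd68 were named after their values were seen. The genes and lists were chosen with earlier results of these data known. One lymphocyte marker is not reported here by name.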

Additional observations from a re-analysis of the deposited data

How the results depend on the processing

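All 108 alternative log2 fold changes of the 9 tested genes kept their direction and their side of an adjusted p of 0.05, and 158 of 168 did so for the 14 other pathway genes named. Among the 589 alternative values of all results, no log2 fold change, share or FPKM ratio reversed. The counts of calls among the 589 were only rated as same, weaker or stronger and could not reverse. Calls beyond a log2 fold change of 1 were less stable, since Ptges, Ptgis, Ptger4 and Ptgs2 lie near it. With library totals, limma on log2(FPKM + 1) or limma on log2(FPKM + 0.1), 2 of the 10 genes were higher beyond 1 in place of 5. Other pathway genes higher beyond 1 numbered 5 with limma on log2(FPKM + 1) and 15 at any fold change, and those lower beyond 1 numbered 12 at any fold change and 0 to 2 with a library left out (0 without control replicate 3, 1 without IL-4 replicate 5 or 6). Other pathway genes lower at any fold change numbered 6 to 14 with a library left out (6 without control replicate 1, 7 without control replicate 2 or IL-4 replicate 5). Over all genes this number ran from 1911 (without control replicate 1) to 3014 (without IL-4 replicate 6). Macrophage markers higher numbered 1 with no filter and DESeq2, and 0 to 1 with a library left out.

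Over all genes, calls beyond 1 were 809 higher and 737 lower (52.3% higher), 657 and 961 with library totals (40.6% higher), 348 and 352 with limma on log2(FPKM + 1), and 2663 and 2582 at any fold change. At any fold change, library totals gave 1704 higher and 4963 lower, limma on log2(FPKM + 1) 1697 and 4916, and limma on log2(FPKM + 0.1) 1694 and 4904. FPKM values lie on the scale of library totals, with a shift of the median to -0.13 and -0.17 under limma. From expected counts, the share differences were -28.7 percentage points for Ptgs2 and -28.5 for Hpgds, since counts are not divided by length. The cause of the other differences was not tested. No paired analysis was possible because control libraries are numbered 1 to 3 and IL-4 libraries 4 to 6.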
